A study of Homo sapiens with 10 samples.

Results

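The APOBEC3 cluster is a row of 7 cytidine deaminase genes on the long arm of human chromosome 22, APOBEC3A, APOBEC3B, APOBEC3C, APOBEC3D, APOBEC3F, APOBEC3G and APOBEC3H. The members were taken as the protein-coding rows with these symbols, 7 of the 60603 genes in each deposited table. They were followed in NB4 cells, an established line from acute promyelocytic leukemia, in which GSE1, a subunit of LSD1-containing repressor complexes, was silenced or LSD1 was inhibited. In the knockdown (KD), cells were harvested 48 h after transduction with lentiviral pLKO.1 puro, either empty (EV) or with the hairpin shA1 or shB2 against GSE1, so the controls carried the vector as well. In the second experiment, cells received DMSO or the LSD1 inhibitor MC2580 at 2 µM for 24 h. mRNA-seq was done on 2 biological replicates in each of the 5 groups, and the comparisons asked which transcripts respond to GSE1 KD and to LSD1 inhibition.

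APOBEC3 enzymes convert cytosine to uracil in single-stranded DNA through a zinc-coordinating active site. APOBEC3G, APOBEC3F, APOBEC3D and APOBEC3H restrict retroviruses that lack a counteracting Vif protein by mutating the minus strand made during reverse transcription, APOBEC3A and APOBEC3B can mutate nuclear DNA and are known for the mutation signatures they leave in tumours, and several members respond to interferon. In blood, APOBEC3G is high in lymphocytes and APOBEC3A is strongly inducible in monocytes.

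The 7 genes lie on the plus strand of GRCh38 between 38952741 and 39104067, a span of 151 kb, and arose by duplication, so stretches of their exons are the same. This matters for any count of reads, and the zinc-binding motif shows it. The motif is histidine, 1 residue, glutamate, then proline, cysteine, 2 to 4 residues and cysteine. A search of the canonical coding sequences found 1 such motif in APOBEC3A, APOBEC3C and APOBEC3H and 2 in APOBEC3B, APOBEC3D, APOBEC3F and APOBEC3G, each within a single exon. The coding strand from the histidine codon to the second cysteine codon is shown for the pairs that cannot be separated by a read lying inside it, for APOBEC3C, which is close to one of these pairs, and for APOBEC3G, the member called with both hairpins, with the histidine, glutamate and both cysteine codons in capitals.
APOBEC3A, only motif (exon 3, chr22:38961420-38961530): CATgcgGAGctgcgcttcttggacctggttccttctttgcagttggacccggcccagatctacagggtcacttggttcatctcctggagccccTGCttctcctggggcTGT
APOBEC3B, last motif (exon 6, chr22:38991365-38991475): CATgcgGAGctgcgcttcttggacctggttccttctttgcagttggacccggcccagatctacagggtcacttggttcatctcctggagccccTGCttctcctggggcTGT
APOBEC3B, first motif (exon 3, chr22:38985833-38985937): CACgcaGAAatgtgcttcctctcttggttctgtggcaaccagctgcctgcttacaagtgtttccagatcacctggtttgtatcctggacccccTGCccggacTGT
APOBEC3F, first motif (exon 3, chr22:39044962-39045066): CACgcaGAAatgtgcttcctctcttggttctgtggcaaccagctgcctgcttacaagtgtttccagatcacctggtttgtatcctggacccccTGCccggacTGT
APOBEC3F, last motif (exon 6, chr22:39052095-39052199): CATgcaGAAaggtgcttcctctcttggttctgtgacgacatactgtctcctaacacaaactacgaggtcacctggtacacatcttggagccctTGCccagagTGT
APOBEC3D, last motif (exon 6, chr22:39031715-39031819): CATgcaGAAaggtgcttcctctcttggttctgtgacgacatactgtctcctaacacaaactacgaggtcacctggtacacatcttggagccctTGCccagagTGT
APOBEC3C, only motif (exon 3, chr22:39017787-39017891): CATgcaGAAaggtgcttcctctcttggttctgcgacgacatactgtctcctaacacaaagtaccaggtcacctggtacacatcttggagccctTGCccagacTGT
APOBEC3G, first motif (exon 3, chr22:39080954-39081061): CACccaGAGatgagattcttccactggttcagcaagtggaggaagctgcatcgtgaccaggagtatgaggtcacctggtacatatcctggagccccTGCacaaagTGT
APOBEC3G, last motif (exon 6, chr22:39086312-39086416): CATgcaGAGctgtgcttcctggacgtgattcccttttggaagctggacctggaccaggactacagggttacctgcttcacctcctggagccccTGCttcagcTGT

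The 111 bases of APOBEC3A and of the last motif of APOBEC3B had 0 differences. The first motifs of APOBEC3B and APOBEC3F had 0 differences over 105 bases, and so did the last motifs of APOBEC3D and APOBEC3F. APOBEC3C differed from the latter pair at 4 bases, an identity of 96.2%. The last motif of APOBEC3G shared 61.9% of its bases with APOBEC3H, 57.1% with APOBEC3C and 54.3% with the first motif of APOBEC3B. Only windows of equal length were compared. Its likeness to the 111-base motifs of APOBEC3A and APOBEC3B was therefore not measured. Over the whole canonical transcript, the share of 100-base words also found in another gene was 0% for APOBEC3C and APOBEC3H, 5.96% for APOBEC3F, 7.30% for APOBEC3G, 13.9% for APOBEC3A and 20.5% for APOBEC3B. In APOBEC3D this share was 84.8%, of which most came from a read-through gene, AL022318.4, that joins APOBEC3C to APOBEC3D, and 9.23% remained when that gene was left out. RSEM divides reads that match several genes by estimated abundance, so values of APOBEC3D, and of the APOBEC3A and APOBEC3B pair, are less certain than those of APOBEC3C and APOBEC3G.

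The deposited tables give, per gene, a base mean (the mean over an experiment's libraries of counts divided by size factors), a log2 fold change with its standard error (SE) and the raw and adjusted p-values of the authors' DESeq2 fit, and no value per library. The spread between replicates therefore enters only through the SE. Base means over all genes summed to 40543130 in the KD and 41201112 in the MC2580 experiment, and the depth of single libraries was not examined. A gene was called when its adjusted p-value was under 0.01 and its log2 fold change was larger than 1 in size, the study's threshold. GSE1 itself had a deposited log2 fold change of -0.77 (SE 0.13) under shA1, -0.79 (SE 0.14) under shB2 and 0.07 (SE 0.20) under MC2580. The group means below were worked back from the base mean and the fold changes, with an SE from the dispersion that the deposited errors imply, for 2 libraries a group. Because these are bulk samples, a change in the share of cells that express a gene and a change per cell cannot be told apart.

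Of the 7 members, 5 were expressed and tested, and APOBEC3C and APOBEC3B made up most of the APOBEC3 reads. The levels of genes of different length are compared per kilobase (kb) of the union of annotated exons. In EV cells, APOBEC3C, a single-domain member with weak antiviral activity, stood highest at 744 ± 45.4 normalized reads per kb (mean ± modelled SE). APOBEC3B, the nuclear member, followed at 471 ± 38.5 reads per kb. The remaining tested members lay far below, with APOBEC3D at 29.5 ± 6.88, APOBEC3G at 26.4 ± 3.08 and APOBEC3F at 18.3 ± 3.01 reads per kb. The order of APOBEC3C, then APOBEC3B, then the other three was clear of these errors, whereas APOBEC3D and APOBEC3G differed by less than the SE of APOBEC3D. With the longest transcript as the length instead, APOBEC3G stood at 51.2 ± 5.96 and APOBEC3D at 29.6 ± 6.92 reads per kb, so their order turns with the transcript model. In DMSO-treated cells the order was the same as in EV, from 764 ± 74.2 reads per kb for APOBEC3C to 20.8 ± 4.62 for APOBEC3F.

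**Figure D1:**
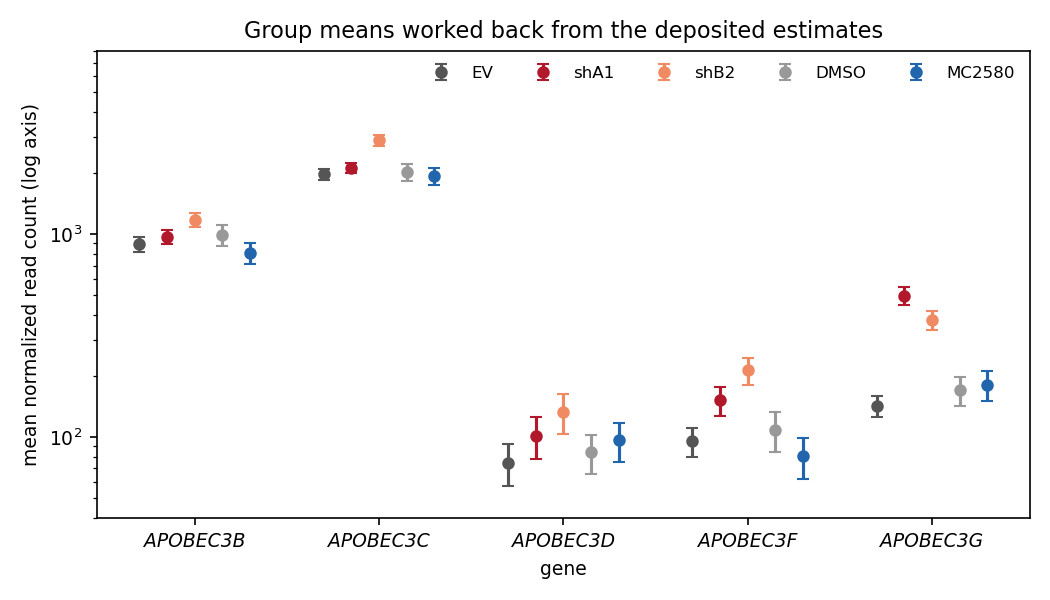
Mean normalized read count (log axis) of the 5 tested APOBEC3 genes in each of the 5 groups, worked back from the deposited estimates, with bars of 1 modelled standard error for 2 libraries. APOBEC3G stands at 497 under shA1 and 377 under shB2 against 142 in EV, while its DMSO and MC2580 means are 170.0 and 181.

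The other 2 members were at or near the limit of detection. APOBEC3A, the interferon- and monocyte-associated member, had a base mean of 0.242 in the KD and 0.622 in the MC2580 experiment, which is 1.45 and 2.49 normalized reads over all 6 and all 4 libraries. Both lie under 3 counts, a floor that covers counting error only, so no fold is given. The last motif of APOBEC3B, the same sequence as that of APOBEC3A, belonged to a gene with a base mean of 1014, so in these tables nearly all reads of this pair were assigned to APOBEC3B. APOBEC3H, the most distal member, had a base mean of 1.42 in the KD, or 8.50 normalized reads over 6 libraries, and was listed at 0 in the MC2580 experiment, where 3 counts would be a base mean of 0.75. The deposited tables give neither gene an adjusted p-value in any comparison.

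GSE1 KD was accompanied by more APOBEC3G RNA with both hairpins, by more APOBEC3F with shB2, and by no called change of a member under MC2580. All 5 tested members had positive log2 fold changes under each hairpin, with ranges of 0.11 to 1.81 for shA1 and 0.40 to 1.41 for shB2. Under shA1, 1 of the 5 tested members was called upregulated, against 4.32% of all 16673 genes tested. Under shB2, 2 of the 5 were called upregulated, against 5.58% of 17913 genes. None was called downregulated by either hairpin, where 0.786% and 2.91% of genes were. Under MC2580, 0 of the 5 passed in either direction and 0 had an unadjusted p-value under 0.05, beside 0.587% of 18554 genes called upregulated and 0.0162% called downregulated, so 5 genes are too few to set this count apart from the background. The median log2 fold change of the tested members was 0.45 under shA1, 0.84 under shB2 and -0.07 under MC2580, beside medians of -0.0016, 0.0012 and -0.0012 over all genes tested.

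**Figure D2:**
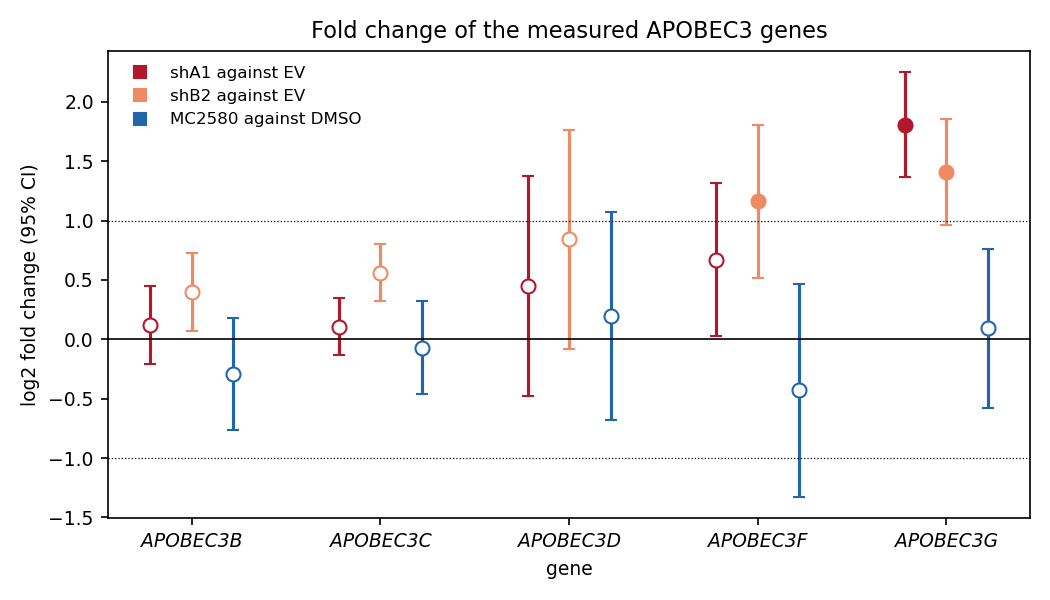
Deposited log2 fold change of the 5 tested APOBEC3 genes under shA1 and shB2 against EV and under MC2580 against DMSO, with 95% confidence intervals (CI) from the standard errors. Filled points passed the threshold, which are APOBEC3G under both hairpins and APOBEC3F under shB2, and dotted lines mark log2 fold changes of 1 and -1.

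APOBEC3G (ENSG00000239713.9, chromosome 22, 39077067 to 39087743), the double-domain restriction factor of Vif-deficient HIV, was the member called with both hairpins. Its mean normalized read count was 142 ± 16.5 in EV, 497 ± 52.3 under shA1 and 377 ± 40.2 under shB2. Both knockdown means stood above EV by several SE. The deposited log2 fold change was 1.81 (SE 0.23) under shA1, a 3.50-fold increase with a 95% CI of 2.57 to 4.76 (adjusted p = 8.60e-14, DESeq2 Wald test). Under shB2 it was 1.41 (SE 0.23), a 2.65-fold increase with a 95% CI of 1.95 to 3.62 (adjusted p = 8.98e-09, the same test). Ordered by fold change, APOBEC3G took place 549 among the genes tested under shA1 and place 1368 under shB2. The shB2 value minus the shA1 value was -0.40, with a 95% CI of -1.03 to 0.23, so no difference between the hairpins was detectable and the interval allows an shA1 effect up to 1.03 log2 units larger. In the inhibitor experiment APOBEC3G was at 170.0 ± 28.5 in DMSO and 181 ± 30.4 under MC2580. Those means lay within 1 SE of each other, and the deposited log2 fold change of 0.09 (SE 0.34) had a 95% CI of -0.58 to 0.76.

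APOBEC3F (ENSG00000128394.17, chromosome 22, 39040604 to 39055972), a double-domain antiviral deaminase next to APOBEC3G, had means of 95.3 ± 15.7 in EV, 152 ± 24.0 under shA1 and 213 ± 33.1 under shB2. The shB2 mean stood above EV by more than their SE, and the shA1 mean lay between them. Under shB2 the deposited log2 fold change was 1.16 (SE 0.33, adjusted p = 0.00188), a 2.24-fold increase with a 95% CI of 1.43 to 3.49. Under shA1 it was 0.67 (SE 0.33, adjusted p = 0.122), which was not called. The call in one hairpin and not in the other does not show that they differed: the shB2 minus shA1 difference was 0.49 with a 95% CI of -0.42 to 1.40. With MC2580 the mean was 80.5 ± 18.2 against 108 ± 24.1 in DMSO, a log2 fold change of -0.43 with a 95% CI of -1.32 to 0.47.

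APOBEC3D (ENSG00000243811.10, chromosome 22, 39021113 to 39033277), the third double-domain antiviral member, had the largest SE of the 5 tested members in the KD. Its means were 74.5 ± 17.4 in EV, 102 ± 23.4 under shA1 and 133 ± 30.3 under shB2, and these overlap within 2 SE. The deposited log2 fold changes were 0.45 (SE 0.47, adjusted p = 0.570) and 0.84 (SE 0.47, adjusted p = 0.169), neither of them called. Its DMSO and MC2580 means of 84.3 ± 18.5 and 96.4 ± 21.0 gave a log2 fold change of 0.19 (SE 0.45). The read-through gene AL022318.4, which holds 83.7% of the 100-base words of APOBEC3D, was at 0.218 normalized reads in EV, 33.5 under shA1, 10.2 under shB2, 0.171 in DMSO and 19.2 under MC2580. The EV and DMSO values lie under the floor of 3 counts over a group (1.5 per library). The deposited log2 fold changes of AL022318.4 had an SE of 3.77 under shA1, 3.78 under shB2 and 2.00 under MC2580, and none was called. When its mean was added to that of APOBEC3D, an alternative chosen after seeing the data, the log2 ratio to control became 0.85 under shA1, 0.94 under shB2 and 0.45 under MC2580, each within 1 SE of the value of APOBEC3D alone. How RSEM split reads between both genes was not tested.

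APOBEC3B (ENSG00000179750.16, chromosome 22, 38982347 to 38992804) and APOBEC3C (ENSG00000244509.4, chromosome 22, 39014257 to 39020352) were the highest members and had the smallest log2 fold changes of the 5 under each hairpin. APOBEC3B had means of 893 ± 73.0 in EV, 970.2 ± 79.0 under shA1 and 1178 ± 95.3 under shB2. Its deposited log2 fold change was 0.12 (SE 0.17, adjusted p = 0.698) under shA1 and 0.40 (SE 0.17, adjusted p = 0.0483) under shB2. The 95% CI of the shA1 value, -0.21 to 0.44, excludes a log2 change of 1, and so does that of the shB2 value, 0.07 to 0.72. MC2580-treated cells had 807 ± 95.1 reads of APOBEC3B and DMSO-treated cells 987 ± 116, which overlap within 1 SE.
APOBEC3C had means of 1967 ± 120.0 in EV, 2119 ± 129 under shA1 and 2903 ± 175 under shB2. Only the shB2 mean stood clear of EV. The log2 fold change under shB2 was 0.56 (SE 0.12, adjusted p = 4.13e-05), a 1.48-fold difference that passed the adjusted p-value but not the fold change threshold. Without that fold threshold APOBEC3C would be the third member called under shB2, where 14.2% of genes had a positive fold change and an adjusted p-value under 0.01. Under shA1 it was 0.11 (SE 0.12, adjusted p = 0.617). Under MC2580 the mean of 1926 ± 187 against 2021 ± 196 in DMSO gave a log2 fold change of -0.07 with a 95% CI of -0.46 to 0.32.

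Along the chromosome the fold changes under shB2 followed the order of the genes, with log2 values of 0.40, 0.56, 0.84, 1.16 and 1.41 from APOBEC3B through APOBEC3C, APOBEC3D and APOBEC3F to APOBEC3G. Under shA1 the values in the same order were 0.12, 0.11, 0.45, 0.67 and 1.81. This order is a description of 5 genes that share libraries and, in part, sequence, and the intervals of most neighbours overlap. Within shA1, APOBEC3G exceeded APOBEC3F by 1.14 (95% CI 0.36 to 1.92), APOBEC3D by 1.36 (0.33 to 2.39), APOBEC3C by 1.70 (1.19 to 2.21) and APOBEC3B by 1.69 (1.14 to 2.24) on the log2 scale, taking the errors of the genes as independent. Within shB2 the corresponding differences were 0.25 (-0.54 to 1.03) from APOBEC3F, 0.57 (-0.46 to 1.59) from APOBEC3D, 0.85 (0.34 to 1.35) from APOBEC3C and 1.01 (0.46 to 1.56) from APOBEC3B. Of the reads assigned to the 5 tested members, APOBEC3G took 4.48% in EV, 13.0% under shA1 and 7.85% under shB2, while APOBEC3C took 62.0%, 55.2% and 60.4%. The sum over the 5 members was 3172 normalized reads in EV, 3840 under shA1 and 4805 under shB2. In the inhibitor experiment that sum was 3371 in DMSO and 3091 under MC2580.

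The genes that flank the cluster were read from the same tables. On the left, DNAL4, NPTXR and CBX6, a Polycomb chromobox gene, were tested, and none was called under either hairpin or MC2580. DNAL4, a dynein light chain gene, had a log2 fold change of 0.05 (SE 0.20) under shB2. NPTXR had 1.24 (SE 0.43, adjusted p = 0.0179) under shA1 and -0.29 (SE 0.44) under shB2. CBX6 had -0.13 (SE 0.11) under shA1 and 0.79 (SE 0.11, adjusted p = 1.33e-11) under shB2, below the fold threshold. On the right, CBX7, another chromobox gene, had 1.07 (SE 0.83) and -0.98 (SE 0.86), and RPL3, a ribosomal protein gene, -0.05 (SE 0.09) and -0.28 (SE 0.09, adjusted p = 0.00591). PDGFB, which encodes a growth factor subunit, was listed at 0 in the KD. Under MC2580 the 5 tested flanking genes ranged from -0.01 for CBX6 to 0.66 for NPTXR.

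**Figure D3:**
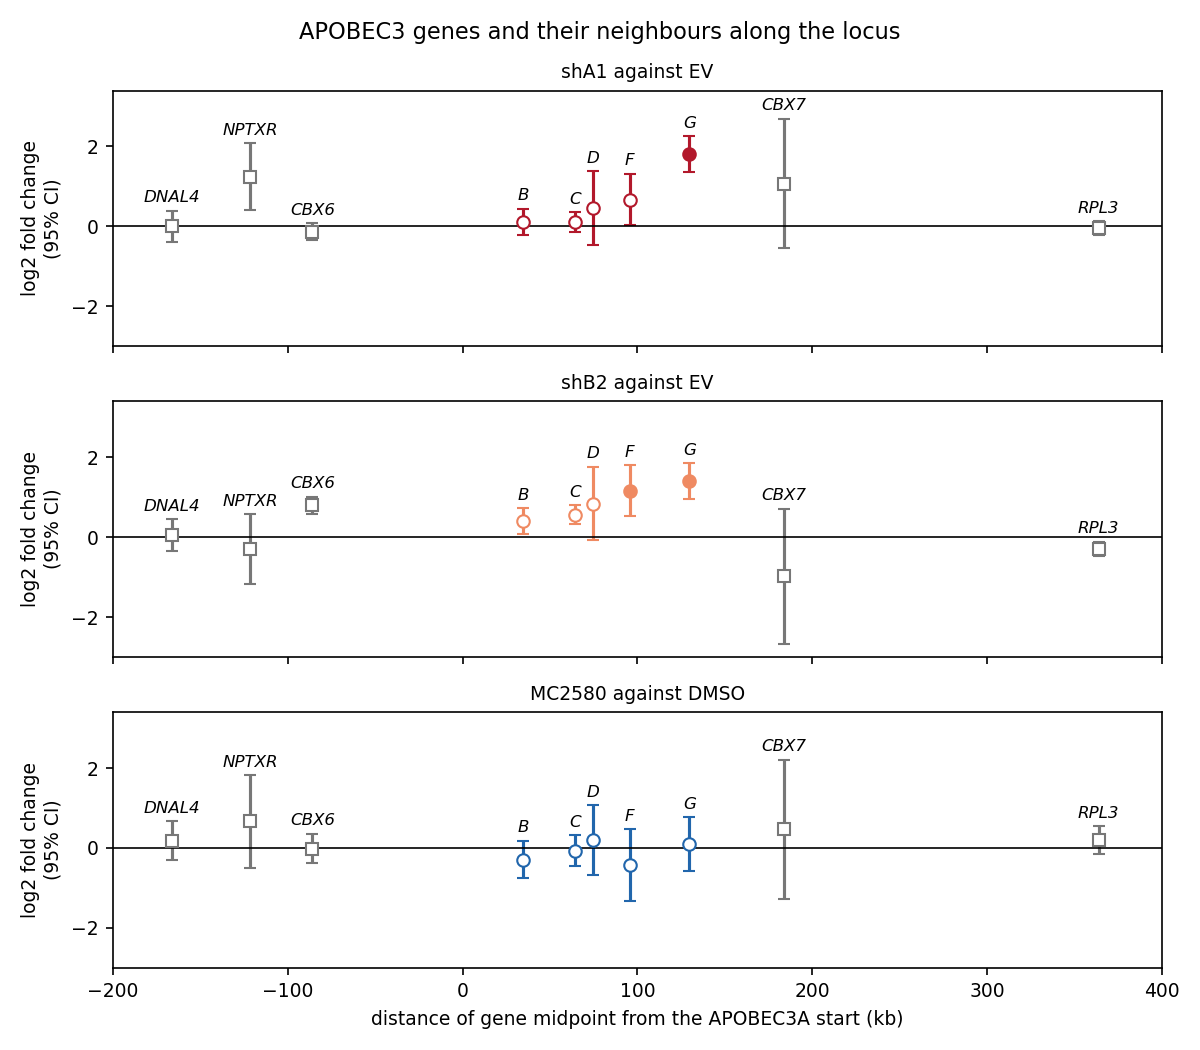
Deposited log2 fold change with its 95% CI of the tested APOBEC3 genes (circles, lettered B, C, D, F and G) and of the tested neighbours (grey squares) against the distance of each gene's midpoint from the start of APOBEC3A in kb, for the 3 comparisons. Filled symbols passed the threshold. The values of the circles climb from B to G in the shB2 panel, from 0.40 to 1.41, and stay between -0.43 and 0.19 in the MC2580 panel.

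The hairpins and the inhibitor were then set against each other directly. Between the hairpins, 0 of the 5 tested members differed at the threshold, against 3.03% of 16673 genes, and 1 had an unadjusted p-value under 0.05. That member was APOBEC3C, with a difference of 0.45 in favour of shB2 (SE at most 0.18, adjusted p = 0.0788, Wald test on the DESeq2 estimates). The true SE is smaller, since the EV libraries enter both fold changes. With the EV variance removed, the SE fell to 0.12, with an adjusted p-value of 0.00195 by the same test, and 16% of genes had an adjusted p-value under 0.01 on that scale. For APOBEC3B and APOBEC3D the differences were 0.28 (95% CI -0.18 to 0.74) and 0.39 (-0.91 to 1.70).
Comparing MC2580 with the hairpins crosses experiments with different controls, times and delivery, so a difference cannot be assigned to the target alone. All 5 members had a lower log2 fold change under MC2580 than under either hairpin. Both contrasts use the same MC2580 values, and the share of all genes with a lower value was not worked out. Against shA1 some of the differences lay within 1 SE, such as -0.18 (SE 0.23) for APOBEC3C and -0.26 (SE 0.65) for APOBEC3D. The MC2580 value minus the shA1 value was called for 1 member, APOBEC3G, at -1.71 (SE 0.41, adjusted p = 0.00199, Wald test on the DESeq2 estimates), against 2.01% of 16495 genes. Against shB2, 0 of the 5 were called, where 4.51% of 17378 genes were, and 4 had an unadjusted p-value under 0.05. Of these, APOBEC3F differed by -1.59 (SE 0.56, adjusted p = 0.0450) and APOBEC3G by -1.31 (SE 0.41, adjusted p = 0.0182). At an adjusted p-value under 0.05 these 2 would be called, where 5.93% of genes were. For counts at an unadjusted p-value under 0.05, here and elsewhere, the share of all genes was not worked out. Such counts are therefore not set against a background.

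APOBEC genes outside the cluster gave no signal to compare. APOBEC2 had a base mean of 4.13 in the KD, and APOBEC1 and APOBEC4 were listed at 0, so none of them was tested. Of 9 genes of uracil repair or dUTP removal, 0 passed the threshold in any comparison, and at an unadjusted p-value under 0.05 there were 5 under shA1, 4 under shB2 and 0 under MC2580. Their median log2 fold change was -0.16 under shA1, -0.09 under shB2 and -0.08 under MC2580. UNG, the main uracil-DNA glycosylase, had -0.48 (SE 0.11, adjusted p = 5.40e-05) under shA1 and -0.90 (SE 0.11, adjusted p = 4.85e-16) under shB2. DUT, which removes dUTP from the nucleotide pool, had -0.57 (SE 0.10) and -0.65 (SE 0.10). XRCC1, a repair scaffold gene, had 0.36 (SE 0.11, adjusted p = 0.00495) under shA1 and 0.04 (SE 0.11) under shB2, and 3 of the 9 genes had a positive value under each hairpin. None of these values passed the fold threshold.

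Several retrovirus restriction factors outside the cluster were upregulated by the hairpins as well. Of 11 such genes, 6 were upregulated under shA1 and 4 under shB2, beside 4.32% and 5.58% of all genes tested. None was downregulated at the threshold, and 0 passed under MC2580, where 2 had an unadjusted p-value under 0.05. Their median log2 fold change was 1.02 under shA1 and 0.64 under shB2. SAMHD1, which depletes the nucleotides needed for reverse transcription, rose by 1.45 (SE 0.15) under shA1 and 1.79 (SE 0.15) under shB2. TRIM22 rose by 2.76 (SE 0.18) and 1.29 (SE 0.18), and the exonuclease gene ISG20 by 3.88 (SE 0.49) and 2.46 (SE 0.49). TRIM5, which binds retroviral capsids, and BST2, which tethers virions to the cell surface, rose under shA1 by 1.02 (SE 0.19) and 1.33 (SE 0.13), and had 0.57 (SE 0.19) and 0.90 (SE 0.13) under shB2. Not all went up: SERINC5 had -0.39 (SE 0.19) under shA1 and -0.47 (SE 0.19) under shB2. MX2 had 0.28 (SE 0.11) under shA1 and -0.45 (SE 0.11, adjusted p = 0.000279, DESeq2 Wald test) under shB2, below the fold threshold. Of this list only TRIM22 differed between the hairpins at the threshold, by -1.47 (SE at most 0.25, adjusted p = 5.11e-07, Wald test on the DESeq2 estimates).

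Interferon-stimulated genes, measured because several APOBEC3 genes respond to interferon, rose as a whole list with shA1 and in part with shB2. Of 15 such genes, 15 were upregulated under shA1, 7 under shB2 and 2 under MC2580, beside 4.32%, 5.58% and 0.587% of all genes tested. None of the 15 was downregulated. Their median log2 fold change was 4.30, 1.21 and 0.73 in turn. Under shA1, IFIT2 and IFIT3, which inhibit translation of foreign RNA, rose by 4.51 (SE 0.41) and 4.38 (SE 0.44), and under shB2 by 2.27 (SE 0.41) and 1.52 (SE 0.44). MX1, OAS1 (listed under the clone name AC004551.1), OAS2, OASL and RSAD2 made up the remaining genes called with shB2, from 1.07 for RSAD2 to 2.14 for OAS2. IFIT3 and OAS1 were the genes called under MC2580, at 1.07 (SE 0.23) and 1.12 (SE 0.18). ISG15, IFIT1, OAS3, USP18, IFI44, IFI44L, IFI6 and DDX58, called in no other comparison, ranged under shA1 from 2.57 for IFI6 to 5.36 for IFI44L. Between the hairpins, 7 of the 15 were lower under shB2 at the threshold, where 3.03% of all genes tested were called in either direction. The median difference of the 15 was -2.63. For the 5 tested APOBEC3 members it was 0.39 with 0 calls, and 5 genes are too few to set that count apart from the background.

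Interferon signalling genes also differed between the hairpins. Of 9 tested, 5 were upregulated under shA1, 1 under shB2 and 0 under MC2580, beside 4.32%, 5.58% and 0.587% of all genes tested. Under MC2580, 4 of the 9 had an unadjusted p-value under 0.05. Among the 9, the transcription factor gene STAT2 had 1.66 (SE 0.12) under shA1, IRF1 had 1.17 (SE 0.12), IRF9 2.52 (SE 0.22) and IRF7 2.53 (SE 0.18). Under shB2 IRF7 was called, at 1.15 (SE 0.19), while STAT2 stood at 0.97 (SE 0.12), IRF1 at -0.07 (SE 0.12) and IRF9 at 0.56 (SE 0.23). The difference between the hairpins was called for 4 of the 9 genes, all lower under shB2, against 3.03% of all genes tested in either direction. The interferon gene IFNB1 had a base mean of 3.68 and was not tested.

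**Figure D4:**
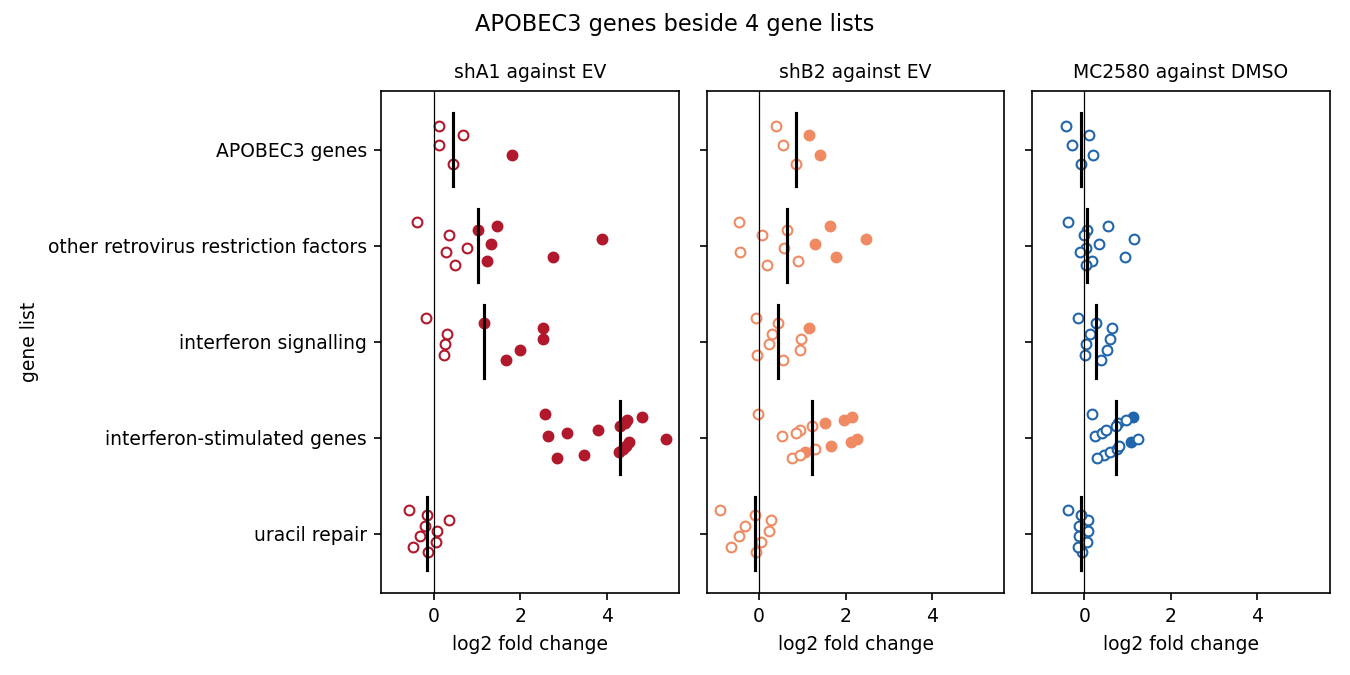
Deposited log2 fold changes of the tested APOBEC3 genes beside those of 4 gene lists, 1 point a gene, in the 3 comparisons. Filled points passed the threshold and black bars are list medians, which for the interferon-stimulated genes fall from 4.30 under shA1 to 1.21 under shB2 while that of the APOBEC3 genes is 0.45 and 0.84.

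Known regulators of APOBEC3B were also read, which are NF-kappaB and cell-cycle factors that include MYBL2, LIN9 and E2F proteins. Of 9 genes, 1 was upregulated under shA1, NFKB2 at 1.38 (SE 0.21), and 1 was downregulated under shB2, RELB at -1.08 (SE 0.29). Of all genes tested, 4.32% were upregulated under shA1 and 2.91% downregulated under shB2. NFKB2 had -0.45 (SE 0.22) under shB2 and RELB 0.73 (SE 0.28) under shA1, and both differed between the hairpins at the threshold. MYBL2 had -0.50 (SE 0.12) and 0.35 (SE 0.12), and FOXM1 -0.36 (SE 0.10) and 0.38 (SE 0.10), none of them past the fold threshold. With MC2580, 0 of the 9 passed and 1 had an unadjusted p-value under 0.05.

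Markers of cell identity were followed beside the members, since APOBEC3 levels differ between blood cells. In EV cells the promyelocyte list was dominated by MPO, the granule peroxidase, and summed to 728674 normalized reads over 7 genes, although ELANE, neutrophil elastase, had a base mean of only 1.10. That sum was 439898 under shA1, 389969 under shB2, 766522 in DMSO and 918916 under MC2580. Of 6 tested genes of this list 2 were downregulated by each hairpin, beside 0.786% of all genes tested under shA1 and 2.91% under shB2. The granule protease gene PRTN3 had log2 fold changes of -1.48 (SE 0.36) under shA1 and -1.57 (SE 0.36) under shB2. The other calls were CTSG under shA1, at -1.74 (SE 0.28), and AZU1 under shB2, at -1.08 (SE 0.20). The surface receptor genes CD33 and CSF3R went the other way, with 0.26 (SE 0.11) and 0.26 (SE 0.12) under shA1 and 0.43 (SE 0.11, adjusted p = 0.000751) and 0.39 (SE 0.12, adjusted p = 0.00415) under shB2, below the fold threshold. The 7 myeloid maturation markers summed to 5067 reads in EV, 10867 under shA1, 11290 under shB2, 4472 in DMSO and 20628 under MC2580. In each comparison 3 of the 7 were upregulated, beside 4.32% of all genes tested under shA1, 5.58% under shB2 and 0.587% under MC2580. LYZ had the highest base mean of this list, 4923 in the KD and 9248 in the MC2580 experiment. The sum under MC2580 therefore mostly reflects this 1 gene. ITGAM, which encodes CD11b, had 2.95 (SE 0.15), 2.99 (SE 0.15) and 2.07 (SE 0.32) in the shA1, shB2 and MC2580 comparisons, and CD86, a costimulatory ligand, 3.00 (SE 0.26), 4.15 (SE 0.26) and 2.32 (SE 0.39). The remaining markers differed between the comparisons. CSF1R had 1.32 (SE 0.20), -0.04 (SE 0.20) and 0.88 (SE 0.26) in the same order and was called under shA1. CD14 had 2.39 (SE 0.84), 2.88 (SE 0.83) and -0.48 (SE 0.96) and was called under shB2. LYZ, lysozyme, had 0.67 (SE 0.12), 0.88 (SE 0.12) and 2.72 (SE 0.22) and was called under MC2580. FCGR1A, an Fc receptor gene, had -0.45 (SE 0.32), -0.84 (SE 0.32) and 0.92 (SE 0.35) and was not called.
The 10 lymphocyte and erythroid markers summed to 2389 reads in EV, 4479 under shA1, 3326 under shB2, 2206 in DMSO and 2664 under MC2580. NKG7 had the highest base mean of this list in the KD, 2346, followed by CD3D at 866. The higher sums under the hairpins therefore mostly reflect NKG7. Of 7 tested in the KD, NKG7 was upregulated by both hairpins, at 1.49 (SE 0.14) and 1.21 (SE 0.14), CD2 by shB2 at 5.91 (SE 1.71) on a base mean of 13.1, and CD3D fell by 1.29 (SE 0.16) under shB2. The B cell gene MS4A1 and the T cell gene CD3E had base means of 0.217 and 1.55. The part that any of these markers plays in the APOBEC3 values was not tested.

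The genes whose 3 fold changes lay nearest to those of each called member were found by Euclidean distance over 10915 other protein-coding genes whose base mean reached 50 in each experiment. For APOBEC3G these were SLC35E4 (distance 0.13, with log2 fold changes of 1.75, 1.30 and 0.05 under shA1, shB2 and MC2580), NRP1 (0.15) and ADORA3 (0.15). NRP1 encodes neuropilin, a semaphorin and growth factor coreceptor, and ADORA3 an adenosine receptor. For APOBEC3F they were TRIM71 (distance 0.02, with 0.68, 1.15 and -0.42), REEP3 (0.09) and UBA6 (0.12). The distances rest on 3 comparisons, 2 of which share the EV libraries.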

How the data were processed

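NB4 RNA was measured by mRNA-seq in EV, shA1, shB2, DMSO and MC2580 cells, 2 libraries a group. Sample titles write the compound as MC280 and the treatment as MC2580, and both were read as MC2580. Per the labels and methods, the authors made TruSeq libraries, aligned them with STAR (2.7) on hg38, estimated gene counts in RSEM and compared groups with DESeq2, whose version is not given in the sources used here. As a signal, the authors deposited base means, averages of counts divided by size factors over 6 or 4 libraries. The log2 values deposited by the authors are fold changes and their standard errors. As p-values, the authors deposited Wald p-values and their Benjamini-Hochberg adjustment. Their Wald statistics were not used. Since no value per library is in the tables used here, these comparison columns were the starting point, and no library total, count interval or leave-one-out fit was possible.

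Columns headed 3-1 and 4-2 were read as shA1 and shB2, as in the study's supplementary table. Group means were solved from the base mean and fold changes, and each gene's dispersion from its standard error with size factors of 1. Over 12461 genes the dispersions from both hairpins had a median ratio of 0.996 (5th to 95th percentile 0.984 to 1.00). Both hairpins come from the same fit and share EV, so this ratio is no check of the size factors of 1. Differences between comparisons were Wald tests adjusted over all genes with both adjusted p-values (Python 3.11.15, scipy 1.17.1). In simulated data of 16462 genes, the hairpin difference called 128 of 200 genes changed by 2 log2 units with the upper-bound error and 146 with the EV variance removed, and 0 unchanged genes. The simulated errors used the true dispersions, so these counts leave out the uncertainty of a dispersion estimated from 2 libraries a group. Smaller differences, such as those of the members, were not simulated. Motif windows, exon lengths and 50-, 75- and 100-base word sharing came from GENCODE release 44 on GRCh38. Members and gene lists were chosen with earlier results of these data known. Named genes were the 7 members, list genes called in a comparison (a few are not reported here), 3 flanking protein-coding genes on each side and the 3 nearest patterns of each called member. Others named, such as UNG, DUT, XRCC1, MX2, SERINC5, CD33, CSF3R, FCGR1A, MYBL2, FOXM1 and the untested genes, were chosen after their values were seen. Alternatives were other thresholds, other gene sets for the adjustment, centring and another gene length.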

Additional observations from a re-analysis of the deposited data

Results flagged for a closer look

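APOBEC3G was flagged for a tested difference between effects: the log2 fold change under MC2580 was 1.71 lower than under shA1 (-1.71, SE 0.41, adjusted p = 0.00199, Wald test on the DESeq2 estimates), with log2 fold changes of 0.09 and 1.81. The contrast crosses experiments with different controls, times and delivery, and 2.01% of 16495 genes were called in it. Against shB2 the difference of -1.31 (SE 0.41, adjusted p = 0.0182, the same test) was not called.

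APOBEC3C was set apart by the difference between the hairpins, 0.45 higher under shB2, which had an adjusted p-value of 0.00195 with the shared EV variance removed and 0.0788 with the upper-bound SE, by the same Wald test on the DESeq2 estimates. The difference was below the fold threshold and was not called. With the shared EV variance removed, 16% of all genes tested had an adjusted p-value under 0.01, so 1 member of 5 is not set apart from that background.

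AL022318.4, the read-through gene over APOBEC3C and APOBEC3D, is outside the 7 members and had a deposited log2 fold change of 6.82 (SE 2.00) under MC2580, with an unadjusted p-value of 0.000632 and an adjusted p-value of 0.0582 in the DESeq2 fit. Its DMSO mean of 0.171 normalized reads lies under 3 counts over the group, so that fitted value is no bound on the fold.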

How the results depend on the processing

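No paired analysis was possible because the tables used here hold no value per library, and leaving out replicates was not run for the same reason. A log2 fold change over 2 left 0 members called under shA1, under shB2 and in MC2580 against shA1, where unadjusted p-values under 0.05 were held by 2, 4 and 1 members in the DESeq2 estimates. The share of all genes at that unadjusted cut was not worked out. At an adjusted p-value under 0.05, MC2580 against shB2 gave 2 members, APOBEC3F and APOBEC3G, in place of 0, beside 5.93% of all genes tested. With the shared EV variance removed and no fold change threshold, an alternative chosen after seeing the data, shB2 against shA1 gave 1 member, APOBEC3C, in place of 0. Without the fold threshold shB2 against EV gave 3. With the longest transcript as gene length, 3 of the 5 members kept their place in the order of EV levels. The other alternatives (adjustment over genes whose base mean reached 50, over every gene with a p-value or over protein-coding genes, centring on the median, and removing the shared EV variance with the fold threshold kept) changed no member's call, and of all 223 alternative values of single members 215 kept their call or moved by under 1 SE, 4 gained a call, 4 lost one and 0 reversed. Most of these alternatives changed only a threshold or the set of genes adjusted over and left the fold change itself as it was. A reversal was therefore hardly possible, and the counts do not test the estimates. The low reads of APOBEC3A and APOBEC3H, and 2 libraries a group, limit what could be detected.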
